A study of Mus musculus with 12 samples.

Results

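The comparison described here set germ cells that carry a catalytically dead Tet1 (HxD, genotype Tet1HxD/HxD) against wild-type germ cells (WT). Its members were the libraries whose column names hold HxD or WT, 3 of each, which makes 6 of the 12 libraries of the series. All were RNA sequencing libraries of primordial germ cells of female E14.5 mouse embryos. The cells had been sorted by an Oct4-GFP reporter, RNA came from 5000 cells per extraction, and mRNA was selected with oligo d(T) before library preparation. The other 2 mutants of the series, the knockout (KO, Tet1-/-) and a form described as stalling at 5-hydroxymethylcytosine (V, Tet1V/V), entered the statistical fit and 2 direct comparisons with HxD. Whether the replicates of a genotype are different embryos is not said in the labels. The p-values therefore cover the spread among these libraries only, which could be technical.

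TET1 is a dioxygenase that oxidizes 5-methylcytosine in DNA, first to 5-hydroxymethylcytosine and then further. The HxD form carries changes in the iron-binding motif of the catalytic domain, while the gene is still present. Primordial germ cells lose most of their DNA methylation during development, and in females they then leave mitosis and enter meiotic prophase. In mouse, many genes that are switched on in this period have CpG-rich promoters that are methylated in somatic cells. The comparison asks which transcripts differ in cells whose TET1 lacks its oxidizing activity.

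Libraries HxD1, HxD2 and HxD3 held 28410605, 24243492 and 26314575 counts, and WT1, WT2 and WT3 held 28323877, 20557016 and 24788687. HxD1 had a count for 12815 genes and HxD3 for 17614, and the share of low genes (mean of 1 to 5 CPM) listed at 0 was 43.7% in HxD1, 4.94% in HxD2, 1.77% in HxD3 and 13.3% to 20.6% in WT. The summed level of 10 germ cell markers was 4049 to 4459 CPM in HxD and 4441 to 4572 CPM in WT, where CPM is counts scaled to a common library total by TMM and not divided by gene length. Markers of 7 other cell types summed to at most 70.2 CPM in any of the 6 libraries, and the endothelial list was higher through Pecam1, which germ cells also express. The pregranulosa markers summed to 22.2 to 36.9 CPM in HxD and 34.99 to 70.2 CPM in WT. Among WT libraries, WT1 held 41.2 CPM of macrophage markers (Csf1r and C1qb among them) against at most 0.709 CPM in the other 5. WT1 also held 26.04 CPM of erythroid markers, against 10.7 CPM in HxD1 and at most 0.634 CPM in the rest. WT3 held 11.03 CPM of Y-linked transcripts (9.04 CPM of Eif2s3y and 1.95 CPM of Ddx3y), although it is labelled female, and at most 0.0417 CPM was found in the other 5. Values without WT1, WT3 or HxD1 are given beside several results for this reason.

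Tet1 itself was read at 227.0 CPM in HxD1, 221.7 CPM in HxD2 and 285.8 CPM in HxD3, against 91.4, 180.1 and 215.0 CPM in the WT libraries. All 3 HxD libraries lay above all 3 WT libraries. The log2 fold change was 0.59 ± 0.24 (SE, n = 3 each) and was not called (adjusted p = 0.607, edgeR quasi-likelihood test with Benjamini-Hochberg adjustment). Without WT1 it was 0.31. A gene count cannot show the point changes of HxD, so Tet1 checks these labels only as far as showing that its transcript was present. Tet2 and Tet3, which encode the other enzymes of the family, were not called. Tet2 was at 26.4, 29.4 and 100.8 CPM in HxD and 27.1, 37.0 and 42.9 CPM in WT, and its log2 fold change of 0.55 became -0.36 without HxD3 and 0.87 without HxD1. Tet3 was at 17.6, 6.50 and 6.53 CPM in HxD and 15.4, 18.7 and 13.2 CPM in WT, and these ranges overlapped.

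Of 16166 genes tested, 5 were called in HxD against WT at an adjusted p under 0.05, which is 0.0309% of them. The 4 genes that fell (0.0247%) were Mael, Gm7972, Dazl and Tex101, and the 1 that rose (0.00619%) was Ccng1. All but Gm7972 of the 4 that fell are known germ cell genes, and the gene that rose is a target of p53. At an unadjusted p under 0.05 there were 1172 genes (7.25%), of which 751 were higher (4.65% of those tested) and 421 lower (2.6%). All 3 HxD libraries lay below all 3 WT libraries for 932 genes (5.77%) and above them for 1039 (6.43%). The median log2 fold change of all genes tested was -0.01. In such libraries a transcript carried by fewer cells and a transcript with less RNA per cell cannot be told apart.

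**Figure D1:**
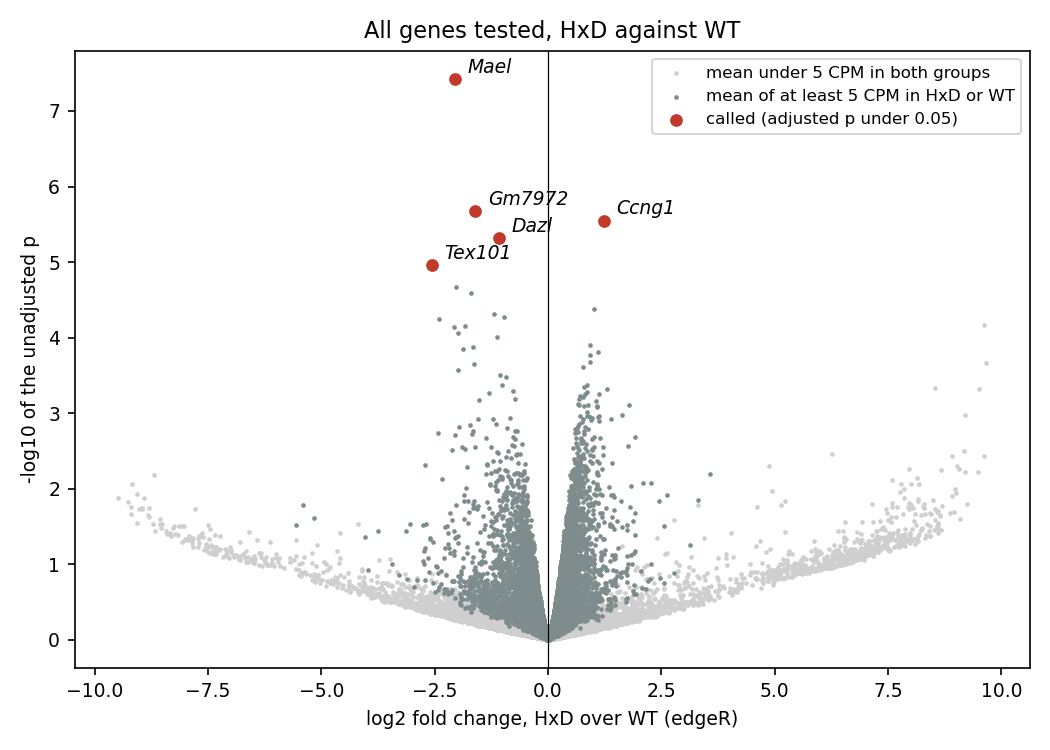
Log2 fold change of HxD over WT (x axis) against -log10 of the unadjusted p (y axis) for the 16166 genes tested, 1 point per gene. The 5 called genes are red, 4 to the left of 0 and Ccng1 to the right, and the pale points far from 0 are genes with a mean under 5 CPM in both groups.

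The number of calls moved with the tool and the libraries used. DESeq2 called 64 genes (0.396%), limma-voom 15 (0.0928%) and edgeR on the 6 HxD and WT libraries alone 20 of 16135 (0.124%), and each of these sets held the 5 genes. Of the 64 DESeq2 genes, 35 had a mean under 5 CPM in both groups. Csf1r, for example, was counted in WT1 alone among the 6 libraries and had a DESeq2 log2 fold change of -22.7. In the fit of 6 libraries 19 of the 20 genes fell, Sycp1, Sycp2, Sycp3, Stra8, Meioc, Tex11, Brdt and Taf7l among them. The count in the fit of all 12 libraries became 1 without HxD3, without WT1 or without WT2, 2 without HxD2, 35 without WT3, 8 without KO3 and 10 without V1, and 0 without both WT1 and WT3, a setting chosen after the data were seen that leaves WT2 alone and assumes that it varies like the other groups. Of the 35 genes called without WT3, 19 were higher and 16 lower in HxD. Mael passed the threshold in each of the 12 fits that left out 1 library, Gm7972, Dazl and Ccng1 in 8 and Tex101 in 7. The direction of the 5 genes was the same in all of the 21 alternatives in which they were tested. Gm7972 and Dazl lost their calls without HxD2, HxD3, WT1 or WT2. Ccng1 lost it without HxD1, HxD3, WT1 or WT2, and Tex101 without any 1 of the 3 HxD libraries, WT1 or WT2. When genes had to reach a mean of 5 CPM, Mael was the only call (adjusted p = 0.00570), while Gm7972, Ccng1 and Dazl each had an adjusted p of 0.0586 and Tex101 one of 0.174 (edgeR). Without HxD1, KO1 and KO3, 6 genes were called, and Ccng1 (adjusted p = 0.0860) and Tex101 (adjusted p = 0.182) were not among them (edgeR).

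Mael encodes Maelstrom, a protein of germ cell granules that acts in the piRNA pathway and in the silencing of transposons. It was at 40.2, 35.2 and 46.6 CPM in the HxD libraries and at 211.2, 153.8 and 143.5 CPM in the WT libraries. The lowest WT library was well above the highest HxD library. Mael fell by 2.06 on the log2 scale (SE 0.28, adjusted p = 0.000607, edgeR), and its log2 fold change was -1.87 without WT1 and -2.17 without WT3.

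Dazl encodes a translation regulator that binds RNA and gives germ cells the competence for meiosis. Its level was 900.5, 684.4 and 674.8 CPM in HxD and 1923, 1666 and 1207 CPM in WT. The groups did not overlap, and the WT libraries spread more widely than the HxD libraries. Dazl fell by 1.09 on the log2 scale (SE 0.19, adjusted p = 0.0197, edgeR). Without WT1 the log2 fold change was -0.93 and without WT3 -1.25.

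Tex101 encodes a germ cell surface protein anchored by glycosylphosphatidylinositol, which mouse sperm need for fertility. Its level was 12.02, 20.5 and 10.8 CPM in HxD and 154.8, 60.4 and 40.1 CPM in WT. The groups did not overlap, but WT1 alone was more than the sum of WT2 and WT3. Tex101 fell by 2.56 on the log2 scale (SE 0.48, adjusted p = 0.0359, edgeR), and its log2 fold change was -1.80 without WT1, -2.90 without WT3 and -2.44 without HxD1.

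Gm7972, a predicted gene with no role known here, was at 57.8, 34.6 and 48.1 CPM in HxD and 185.7, 123.4 and 117.2 CPM in WT. The groups did not overlap. It fell by 1.601 on the log2 scale (SE 0.27, adjusted p = 0.0153, edgeR). GENCODE lists it as a transcribed unprocessed pseudogene and RefSeq as protein-coding, so reads of a near-identical gene could be counted here, and its value is uncertain.

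Ccng1 encodes cyclin G1, a direct transcriptional target of p53. The HxD libraries held 116.7, 82.7 and 110.3 CPM of it, and the WT libraries 45.4, 38.2 and 49.0 CPM. Every HxD library was above every WT library, and here WT1 lay between the other WT libraries. Ccng1 rose by 1.22 on the log2 scale (SE 0.21, adjusted p = 0.0153, edgeR), with log2 fold changes of 1.24 without WT1, 1.30 without WT3 and 1.13 without HxD1.

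**Figure D2:**
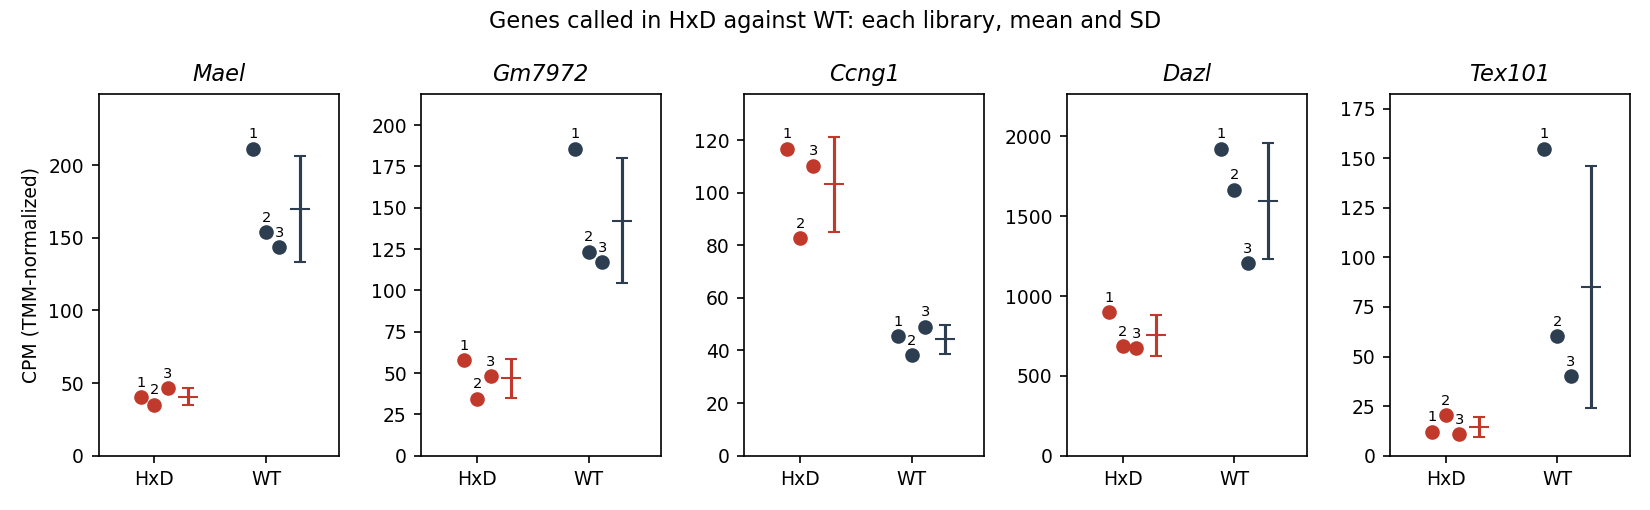
Level in CPM (y axis, from 0, its own scale per gene) of the 5 called genes in the 3 HxD (left) and 3 WT (right) libraries, numbered by library, with the mean and SD beside the points. Ccng1 is higher in HxD and the other 4 are lower, and Tex101 shows how far WT1 stands above WT2 and WT3.

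The promoters of the 4 called genes with a known product are shown because oxidation of methylated CpG is the activity that HxD lacks. They run from 250 bases before to 50 bases after the start, on the minus strand, as RefSeq gives them for GRCm38.p6. Capitals mark CpG dinucleotides. Mael lies at chr1:166238695-166238994, Dazl at chr17:50293571-50293870, Tex101 at chr7:24672001-24672300 and Ccng1 at chr11:40755237-40755536.
Mael: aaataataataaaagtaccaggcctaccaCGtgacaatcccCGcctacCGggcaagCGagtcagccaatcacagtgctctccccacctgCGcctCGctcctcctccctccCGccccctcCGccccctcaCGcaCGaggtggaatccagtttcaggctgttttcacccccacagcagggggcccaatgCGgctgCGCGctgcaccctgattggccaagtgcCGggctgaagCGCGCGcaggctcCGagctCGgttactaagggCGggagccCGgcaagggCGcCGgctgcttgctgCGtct
Dazl: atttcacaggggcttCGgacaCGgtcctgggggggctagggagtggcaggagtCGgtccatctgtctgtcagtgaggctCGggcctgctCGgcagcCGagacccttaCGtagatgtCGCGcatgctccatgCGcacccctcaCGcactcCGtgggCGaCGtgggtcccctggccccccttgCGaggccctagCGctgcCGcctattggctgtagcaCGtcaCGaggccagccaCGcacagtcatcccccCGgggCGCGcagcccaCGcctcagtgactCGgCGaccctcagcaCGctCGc
Tex101: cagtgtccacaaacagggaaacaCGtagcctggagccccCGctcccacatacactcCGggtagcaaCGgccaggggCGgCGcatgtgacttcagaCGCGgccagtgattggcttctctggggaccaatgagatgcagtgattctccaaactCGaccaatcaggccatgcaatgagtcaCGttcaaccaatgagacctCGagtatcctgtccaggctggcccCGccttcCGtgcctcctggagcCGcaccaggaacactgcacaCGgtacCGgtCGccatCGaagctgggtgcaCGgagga
Ccng1: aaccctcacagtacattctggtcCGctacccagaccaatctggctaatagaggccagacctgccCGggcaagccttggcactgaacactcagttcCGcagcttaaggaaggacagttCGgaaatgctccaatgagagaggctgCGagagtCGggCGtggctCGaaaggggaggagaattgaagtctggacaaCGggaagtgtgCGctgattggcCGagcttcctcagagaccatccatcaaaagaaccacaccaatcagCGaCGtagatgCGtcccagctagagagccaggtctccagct
The 300 bases held 24 CpG in Mael, 28 in Dazl, 19 in Tex101 and 14 in Ccng1. The median was 7 over all 27025 promoters of the RefSeq table and 20 over the 12280 promoters of genes tested, so the number of CpG in these 4 spans both sides of the level usual among expressed genes.

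Short words were searched on both strands of the promoters, CACGTG and GCGGGA. The first is the E-box bound by MGA and MAX and the second is part of the E2F6 site. All of these proteins belong to PRC1.6, a Polycomb complex that represses germline genes in mouse embryonic stem cells. Mael held 1 CACGTG and 2 GCGGGA, while Dazl, Tex101 and Ccng1 held neither. The words were present in 7.24% and 20.02% of all promoters, and in 9.96% and 34.5% of the promoters of genes tested. Among the 29 promoters found for germline genes methylated in somatic cells, 13 held CACGTG (44.8%) and 15 held GCGGGA (51.7%). High shares of CACGTG were found in only some of the other lists. CACGTG was in 45.5% of 11 synaptonemal and 36.8% of 19 piRNA promoters, lists with medians below 0. Genes of DNA demethylation and base excision repair had a median log2 fold change of 0.09. They held CACGTG in 38.9% and GCGGGA in 55.6% of 18 promoters. Mitotic genes, with a median of 0.05, held GCGGGA in 54.5% of 33 promoters, but CACGTG in 6.06%. Sycp3 held CACGTG at 2 places and Sycp1 at 1 place, while Sycp2, Stra8, Dmc1 and Meioc, which also lay lower in HxD, lacked it. Cdk4, of the mitotic list, held CACGTG at 4 places. No methylation or binding was measured in these samples.

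Genes of meiotic entry lay mostly lower in HxD. Of 17 tested genes of the list, 1 fell (Dazl), against 0.0247% of all genes tested, and none rose. In 8 of them all HxD libraries were below all WT libraries, against 5.77% of all genes tested. Their median log2 fold change was -0.47, and -0.36 without WT1, against -0.01 over all genes tested. Stra8, which encodes the factor that retinoic acid induces at meiotic entry, was at 168.8, 174.8 and 74.6 CPM in HxD and 977.1, 423.0 and 247.1 CPM in WT. Its groups did not overlap, with the gap set by HxD2 and WT3. The log2 fold change of Stra8 was -1.98 ± 0.43 (SE), with an adjusted p of 0.0928 (edgeR), and -1.27 without WT1. Gm4969, the table's name for Meiosin, encodes the partner of STRA8 in activating meiotic genes. Its transcript was at 9.45, 25.0 and 26.4 CPM in HxD and 91.5, 84.3 and 47.0 CPM in WT, with a log2 fold change of -1.87 (adjusted p = 0.122, edgeR). Meioc, which keeps the mitotic programme off in early prophase, was at 63.7, 61.7 and 39.1 CPM in HxD and 237.0, 137.1 and 136.0 CPM in WT, while its partner Ythdc2 was at 87.9, 74.6 and 76.5 CPM in HxD and 102.3, 83.2 and 50.03 CPM in WT. The ranges of Ythdc2 overlapped, those of Meioc did not, and neither was called.

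The synaptonemal complex and the chromosome axis hold paired chromosomes together in prophase. All 11 tested genes of this list had a log2 fold change below 0, none was called, and 8 had HxD libraries wholly below WT, against 5.77% of all genes tested. The median was -1.05, and it was -0.66 without WT1. Sycp1, the central filament of the complex, was at 90.6, 57.3 and 75.4 CPM in HxD and 370.2, 191.8 and 166.7 CPM in WT, and its log2 fold change was -1.71 ± 0.34 with an adjusted p of 0.0592 (edgeR). It was the gene of known function that came closest to the threshold without passing it. Sycp2, an axis protein, was at 15.3, 9.38 and 9.22 CPM in HxD and 86.3, 42.1 and 50.4 CPM in WT. Sycp3, its partner in the axis, was at 19.03, 27.3 and 20.1 CPM in HxD and 182.7, 58.0 and 40.5 CPM in WT. Neither pair of groups overlapped, and both genes had an adjusted p of 0.0838 (edgeR), with log2 fold changes of -2.40 for Sycp2 and -2.08 for Sycp3. Without WT1 that of Sycp3 was -1.15. Hormad1, which marks unpaired axes, was at 54.2, 51.7 and 50.4 CPM in HxD and 160.2, 73.5 and 90.6 CPM in WT, again without overlap and without a call. Trip13, the ATPase that removes HORMAD proteins, was at 92.0, 89.9 and 79.6 CPM in HxD and 108.8, 72.1 and 83.6 CPM in WT, and its ranges overlapped.

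Cohesins of meiosis showed the same pattern in part. Of 8 tested genes none was called, 7 had a log2 fold change below 0 and 4 had HxD libraries wholly below WT, against 5.77% of all genes tested. The median was -0.97, with -0.53 without WT1 and -1.27 without HxD1. Smc1b was at 565.4, 457.9 and 396.8 CPM in HxD and 1035, 692.1 and 643.3 CPM in WT. Rec8, the meiotic kleisin, was at 278.0, 234.2 and 177.9 CPM in HxD and 533.6, 380.9 and 295.0 CPM in WT. Both had groups that did not overlap, with log2 fold changes of -0.74 for Smc1b (adjusted p = 0.332, edgeR) and -0.81 for Rec8 (adjusted p = 0.435, edgeR). Rad21l, another kleisin, was at 6.38, 3.17 and 0.522 CPM in HxD and 53.3, 0.704 and 7.57 CPM in WT, a level carried by WT1, and its log2 fold change was -0.30 without WT1. Sgol2a, which protects cohesin at centromeres and also acts in mitosis, was at 179.6, 159.6 and 152.1 CPM in HxD and 99.2, 162.1 and 124.1 CPM in WT.

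Genes that make and process meiotic breaks completed the group. All 15 tested genes of break formation and early recombination had a log2 fold change below 0, and none was called. HxD libraries lay wholly below WT for 4 of them, against 5.77% of all genes tested, and the median was -0.89, or -0.62 without WT1. Tex15, a protein of early recombination and of transposon silencing, was at 183.7, 133.6 and 148.8 CPM in HxD and 269.2, 277.6 and 227.1 CPM in WT. Spo11, the enzyme that cuts the DNA, was at 5.11, 13.2 and 34.6 CPM in HxD and 41.2, 23.9 and 30.4 CPM in WT, and these ranges overlapped widely. Of 16 tested genes of strand exchange and crossover, none was called, 12 were below 0 and 6 had HxD libraries wholly below WT, against 5.77% of all genes tested. Their median was -0.89, and -0.49 without WT1. Dmc1, the meiotic recombinase, was at 46.5, 50.01 and 42.2 CPM in HxD and 155.8, 82.5 and 80.3 CPM in WT. The groups of Dmc1 did not overlap, and its log2 fold change was -1.20 ± 0.25 (adjusted p = 0.0838, edgeR). Tex11, an X-linked crossover gene, was at 25.6, 16.4 and 15.2 CPM in HxD and 88.9, 65.2 and 48.8 CPM in WT.

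Joined, the 5 meiotic lists held 66 tested genes. Dazl was the only one called, 58 had a log2 fold change below 0, and 29 (43.9%) had all HxD libraries below all WT libraries, against 5.77% of all genes tested; none lay wholly above. Their summed level was 5280, 4629 and 4471 CPM in HxD and 10083, 7444 and 6371 CPM in WT. The 3 sums of HxD were close together and the WT sums were not. WT1 was the highest of the 6 libraries for 50 of the 66 genes (75.8%), against 23.3% of all genes tested. WT1 is the library with the macrophage and erythroid transcripts, and their part in this pattern was not tested. The median over the 66 genes was -0.87 with all libraries, -0.59 without WT1, -1.02 without WT3 and -0.93 without HxD1.

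**Figure D3:**
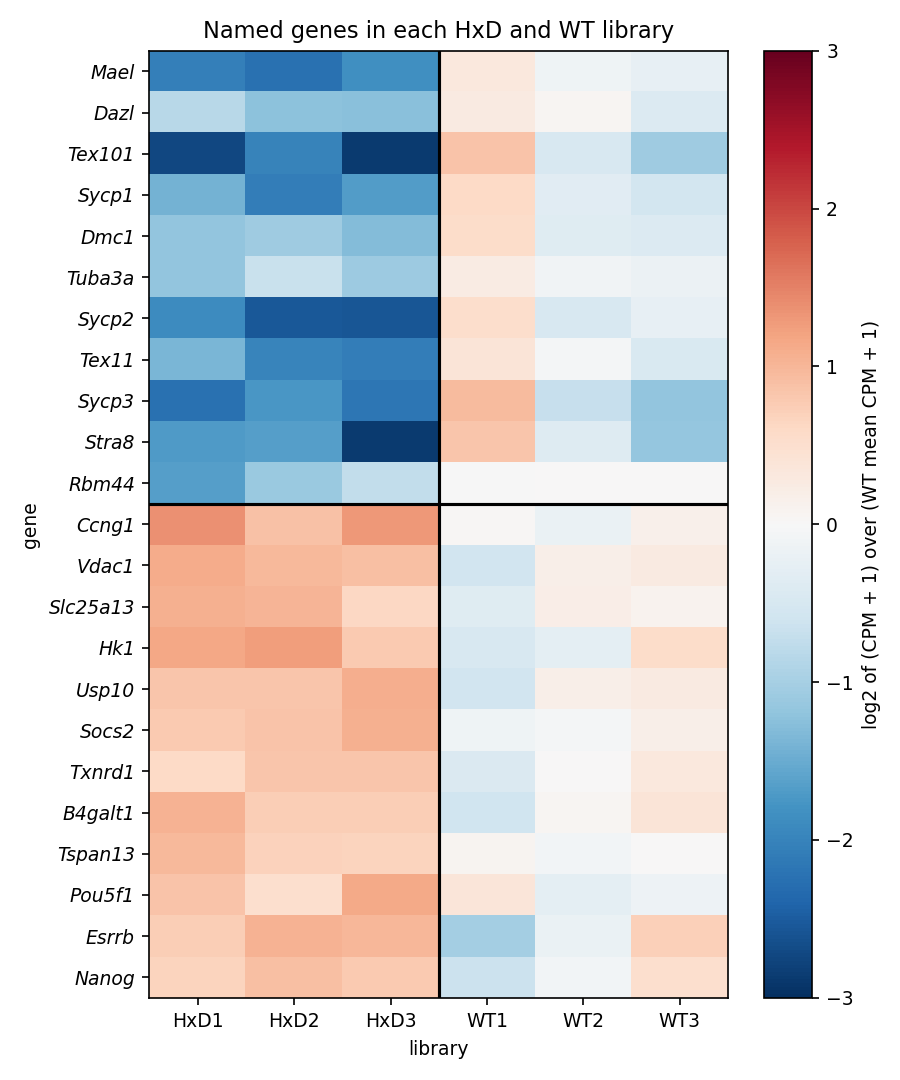
Log2 of the level in each library, as CPM + 1 over the WT mean CPM + 1 (colour), for named genes (rows) in the 3 HxD and 3 WT libraries (columns). Genes above the line are lower in HxD and genes below it higher, a direction set by how most were chosen, and WT1 has the strongest red of the WT libraries for Sycp3, Tex101 and Stra8.

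Germline genes whose promoters are methylated in somatic cells formed the list with the most calls. Of 35 tested genes, Mael, Dazl and Tex101 fell (8.57% of the list, against 0.0247% of all genes tested), 32 had a log2 fold change below 0, and 19 had HxD libraries wholly below WT, against 5.77% of all genes tested. Dnd1, Rhox6 and Rhox9 lay wholly above WT instead. The list shares 13 of its genes with the meiotic lists, and WT1 was the highest library for 27 of the 35. The median log2 fold change was -0.73, with -0.57 without WT1 and -0.84 without WT3. Several members outside the meiotic lists also had groups without overlap. Taf7l, a germ cell form of a TFIID subunit, was at 39.7, 27.3 and 14.7 CPM in HxD and 196.3, 84.1 and 45.3 CPM in WT. Brdt, the bromodomain protein of the germline, was at 17.1, 23.0 and 21.2 CPM in HxD and 80.3, 77.8 and 35.1 CPM in WT. Neither gene had overlapping groups, and neither was called, with adjusted p-values of 0.168 for Taf7l and 0.121 for Brdt (edgeR). Tuba3a, a testis alpha-tubulin with a near-identical copy and therefore uncertain, was at 130.4, 187.7 and 140.1 CPM in HxD and 357.4, 276.5 and 265.4 CPM in WT.

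The piRNA pathway silences transposons in germ cells. Of 24 tested genes Mael fell, against 0.0247% of all genes tested, and 23 were not called. A log2 fold change below 0 was found for 23 of the 24. The median was -0.52. Gpat2 was at 122.1, 127.1 and 114.8 CPM in HxD and 251.8, 182.6 and 188.8 CPM in WT, without overlap (adjusted p = 0.234, edgeR). Piwil2, a PIWI protein, was at 278.8, 228.7 and 203.6 CPM in HxD and 247.1, 284.3 and 251.1 CPM in WT, and its ranges overlapped. Morc1, a silencing factor, was the only member above 0, at 18.4, 46.4 and 51.5 CPM in HxD and 11.6, 16.1 and 24.7 CPM in WT.

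Germ cell RNA-binding proteins showed no common direction. Of 17 tested genes Dazl fell, against 0.0247% of all genes tested, and 16 were not called. HxD libraries lay wholly below WT for 1 and wholly above for 2, against 5.77% and 6.43% of all genes tested. The median was -0.04. Ddx4 (Vasa), an RNA helicase that marks germ cells, was at 614.2, 358.1 and 448.8 CPM in HxD and 714.0, 610.2 and 662.5 CPM in WT. Dnd1, needed for germ cell survival, was at 270.4, 235.3 and 230.8 CPM in HxD and 138.4, 124.1 and 204.0 CPM in WT. Its HxD libraries lay above WT, with a log2 fold change of 0.66 that was not called (adjusted p = 0.325, edgeR).

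Genes of pluripotency and of early germ cell identity leaned the other way. Of 22 tested pluripotency genes none was called, 19 had a log2 fold change above 0, and 9 had all HxD libraries above all WT libraries, against 6.43% of all genes tested. The median was 0.48, with 0.35 without WT1 and 0.67 without WT3. Pou5f1 (Oct4), whose promoter drives the reporter of the sort, was at 450.4, 349.8 and 548.3 CPM in HxD and 317.8, 203.6 and 222.5 CPM in WT. Esrrb was at 201.8, 247.7 and 238.0 CPM in HxD and 59.0, 103.8 and 196.0 CPM in WT, and Nanog at 107.2, 127.3 and 116.1 CPM in HxD and 42.9, 63.2 and 95.4 CPM in WT. None of the 3 had overlapping groups, and their adjusted p-values were 0.289, 0.290 and 0.343 (edgeR). Without WT3, Esrrb (adjusted p = 0.00613) and Nanog (adjusted p = 0.0409) were called, and Pou5f1 (adjusted p = 0.291) was not (edgeR). Without WT1 none of the 3 was called. WT1 was the lowest WT library for Esrrb and Nanog, and not for Pou5f1.

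The list of early germ cell genes reached 0.35 as its median over 16 tested, with none called and 5 wholly above WT, against 6.43% of all genes tested. That median was 0.23 without WT1, 0.63 without WT3 and 0.55 without HxD1. Ifitm3, a surface marker of early germ cells, was at 94.6, 171.3 and 140.3 CPM in HxD and 57.7, 85.2 and 78.9 CPM in WT. Prdm14, a regulator of germ cell specification, was at 59.8, 51.3 and 53.2 CPM in HxD and 26.2, 37.2 and 39.3 CPM in WT, and Tfap2c overlapped between the groups. Mitotic genes had a median of 0.05 over 41 tested genes with none called. Ccnd3, a cyclin of the G1 phase, was at 121.4, 159.6 and 178.5 CPM in HxD and 50.02, 98.7 and 112.4 CPM in WT.

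**Figure D4:**
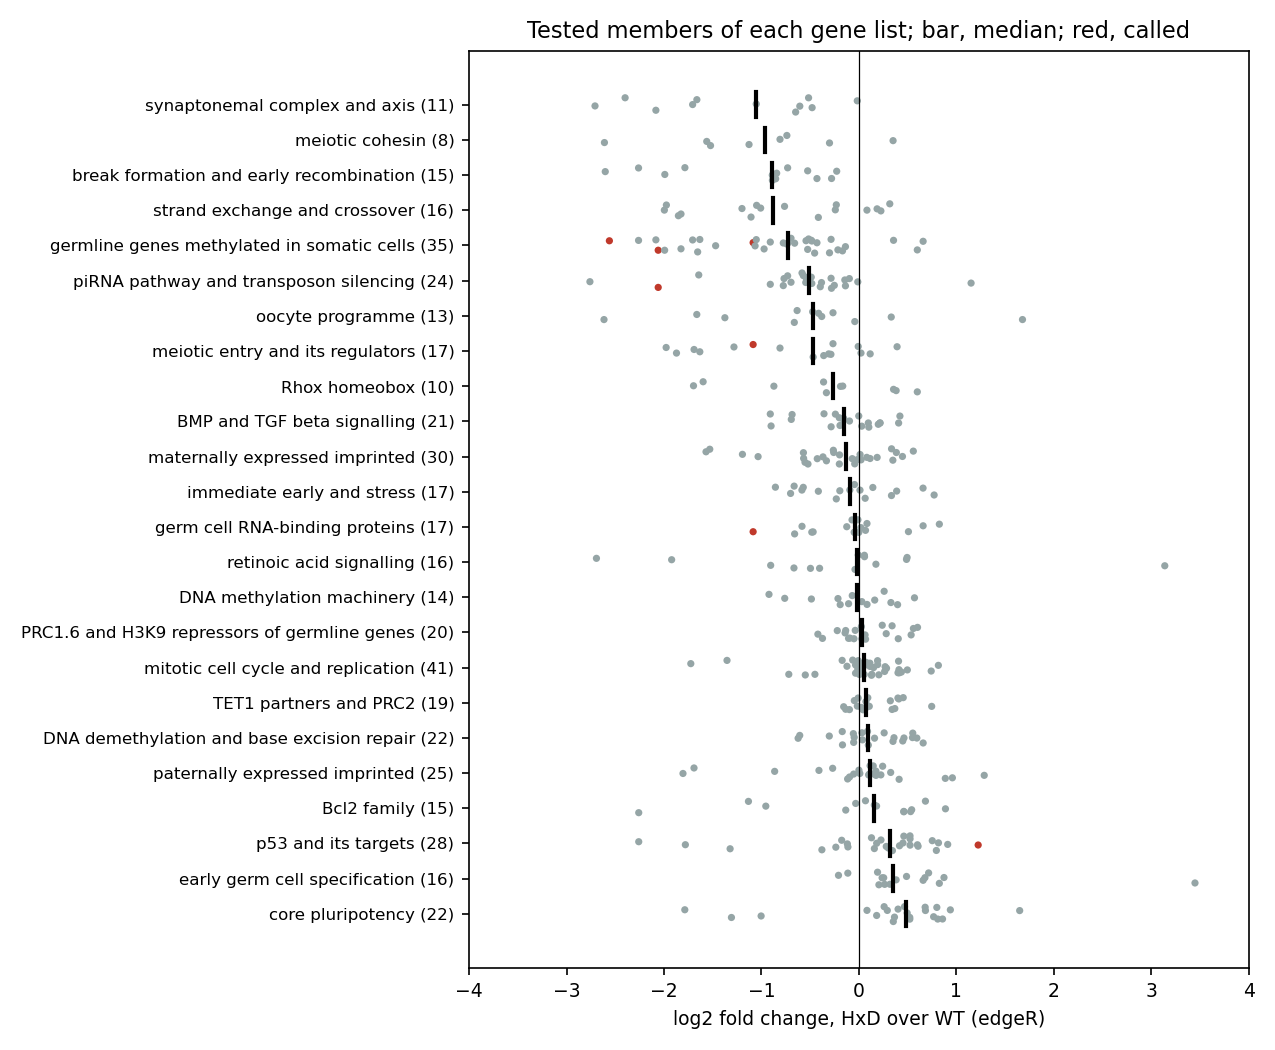
Log2 fold change of HxD over WT (x axis) for each tested member of the 24 gene lists (rows, with the number tested), ordered by their median (black bar); called genes are red. The 5 meiotic lists and the germline, piRNA and oocyte lists have the lowest medians, and the pluripotency list the highest. Medians of the other lists lie on both sides of 0, and 9 members beyond 4 on either side are not drawn.

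The p53 list held the gene that rose. Of 28 tested genes Ccng1 rose, against 0.00619% of all genes tested, and 27 were not called. HxD lay wholly above WT for 6 of them, against 6.43% of all genes tested, and 20 had a log2 fold change above 0. The median was 0.32, and 0.19 without HxD3. Cdkn1a (p21), the inhibitor of cyclin-dependent kinases, was at 70.9, 75.7 and 109.5 CPM in HxD and 47.0, 48.5 and 49.99 CPM in WT. Its groups did not overlap, and the log2 fold change of 0.82 was not called (adjusted p = 0.234, edgeR). Trp53 itself was at 130.6, 173.7 and 237.0 CPM in HxD and 84.2, 88.2 and 183.0 CPM in WT, which overlapped. Ddb2, a repair target of p53, was among the 8 of 28 with a log2 fold change below 0, at 0.740, 10.2 and 7.39 CPM in HxD and 24.1, 20.9 and 18.04 CPM in WT. In the Bcl2 family, which sets the balance of cell death, none of 15 was called, the median was 0.16, and the pro-death member Bmf was at 103.1, 92.7 and 86.7 CPM in HxD and 51.9, 63.5 and 60.6 CPM in WT.

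Among uncalled genes of known function, the 8 higher ones with the smallest p-values were Vdac1, Slc25a13, Hk1, Usp10, Socs2, Txnrd1, B4galt1 and Tspan13. Their log2 fold changes ran from 0.76 to 1.10 and their adjusted p-values from 0.0838 to 0.227 (edgeR). The groups of each did not overlap, which the rule for choosing them required. Vdac1, a channel of the mitochondrial outer membrane, was at 127.9, 116.6 and 111.1 CPM in HxD and 38.8, 66.2 and 70.8 CPM in WT. Hk1, the hexokinase that binds that membrane, was at 114.1, 122.1 and 87.4 CPM in HxD and 35.7, 41.3 and 74.2 CPM in WT. That rule makes a WT library the lowest of the 6. It was WT1 for 7 of the 8, and Tspan13 was the exception.

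Genes around TET1 and DNA methylation gave no call in the reported edgeR fit, against 0.0309% of all genes tested. With lists this small, the absence of calls says little. In the DNA methylation machinery the median was -0.02 over 14 tested genes. Uhrf1, which brings DNMT1 to hemimethylated DNA, was at 52.1, 57.5 and 45.6 CPM in HxD and 102.6, 113.3 and 78.2 CPM in WT. The groups did not overlap, and the log2 fold change was -0.92 (adjusted p = 0.193, edgeR). Uhrf1 was called in 2 of 21 alternatives, DESeq2 among them (adjusted p = 0.0345). Dnmt1 was at 777.9, 745.7 and 697.5 CPM in HxD and 669.7, 823.6 and 835.8 CPM in WT, and its ranges overlapped. Demethylation and base excision repair genes had a median of 0.09 over 22, the repressors of PRC1.6 and H3K9 methylation 0.03 over 20, and TET1 partners with PRC2 0.07 over 19. Pcgf6, the PCGF subunit of PRC1.6, was at 116.3, 107.6 and 89.0 CPM in HxD and 89.9, 58.9 and 57.3 CPM in WT, with HxD3 and WT1 overlapping narrowly.

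Imprinted genes are marked by methylation that germ cells erase. None of 25 paternally and 30 maternally expressed genes tested was called, against 0.0309% of all genes tested. The medians were 0.11 for the paternal and -0.13 for the maternal list, and -0.08 and -0.01 without WT1. Plagl1, a paternally expressed zinc finger gene, was at 243.7, 184.4 and 232.4 CPM in HxD and 58.3, 158.7 and 140.5 CPM in WT, without overlap (adjusted p = 0.255, edgeR). WT1 was far below the other WT libraries for this gene. Kcnq1ot1, a paternally expressed long RNA, was at 24.4, 24.1 and 41.4 CPM in HxD and 62.0, 61.1 and 40.7 CPM in WT, and HxD3 overlapped WT3. The Rhox cluster of X-linked homeobox genes had a median of -0.26 over 10 tested, with -0.08 without HxD1, -0.55 without HxD2 and -0.09 without WT3. Its members lay on both sides, with Rhox6 at 373.2, 401.5 and 314.3 CPM in HxD and 236.0, 266.5 and 216.4 CPM in WT, and Rhox1 at 19.6, 27.3 and 32.0 CPM in HxD and 57.0, 45.4 and 42.2 CPM in WT. These are close relatives in sequence and their counts are uncertain.

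Genes of signalling and of stress responses formed 3 lists. Retinoic acid genes had a median of -0.02 over 16 tested and BMP and TGF beta genes -0.16 over 21. For immediate early and stress genes the median was -0.09 over 17. No gene was called in any of these lists, against 0.0309% of all genes tested. Id1, a direct target of BMP signalling, was at 65.0, 81.3 and 69.6 CPM in HxD and 151.6, 105.0 and 92.6 CPM in WT, without overlap (adjusted p = 0.417, edgeR). Aldh1a2, an enzyme that makes retinoic acid, was at 7.82, 5.50 and 8.54 CPM in HxD and 2.34, 0 and 0.119 CPM in WT, without overlap and without a call. The oocyte list had 13 of 23 members tested and no call. Its median was -0.47, with and without WT1, and 11 of the 13 had a log2 fold change below 0. HxD lay wholly below WT for 6 of them, against 5.77% of all genes tested. Figla, a factor that later turns on zona pellucida genes, was at 0, 0 and 0.448 CPM in HxD and 14.4, 2.20 and 3.03 CPM in WT. For the 12 lists with a median within 0.2 of 0, leaving out 1 HxD or WT library moved the median by at most 0.20, and 7 of them changed sign in at least 1 such setting.

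By position, 96.6% of the tested genes could be matched to RefSeq. The X chromosome held 586 tested genes with 0 called and a median of -0.06 over the 374 with a mean of at least 5 CPM, against 0.03 for autosomes. The 313 tested genes within 20 Mb of Tet1, where DNA carried along with the mutated allele would lie, had 0 calls. Of these, 214 reached a mean of 5 CPM, and their median log2 fold change was 0.02. Over all 16166 genes tested only 5 were called (0.0309%), so 0 calls among 586 or 313 genes say little. An effect of carried DNA was not tested.

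HxD was then compared directly with the other mutants. In HxD against KO edgeR called 0 genes (0%), with 514 genes at an unadjusted p under 0.05 (3.18%), and limma-voom called 0 and DESeq2 25 (0.155%). In HxD against V edgeR called 0 (0%), with 326 genes at an unadjusted p under 0.05 (2.02%), limma-voom 0 and DESeq2 15 (0.0928%). A p that misses the threshold does not show that the mutants act alike. Mael was at 40.2, 35.2 and 46.6 CPM in HxD against 17.7, 25.7 and 22.1 CPM in KO, a log2 difference of 0.90 ± 0.27 with an adjusted p of 1 (edgeR). Tex101 was at 12.02, 20.5 and 10.8 CPM in HxD against 2.14, 5.30 and 7.22 CPM in KO, a log2 difference of 1.56 ± 0.47. Both HxD groups lay wholly above KO and were not called. Against V the log2 difference was -0.03 ± 0.27 for Mael, 0.14 ± 0.19 for Dazl and 0.16 ± 0.21 for Ccng1. Galnt11, a glycosyltransferase named here after its values were seen, came closest to a call, at 73.0, 108.7 and 103.0 CPM in HxD against 31.7, 40.2 and 37.5 CPM in KO. Its log2 difference was 1.38 ± 0.24 with an adjusted p of 0.0578 (edgeR), and WT held 42.1, 61.8 and 68.8 CPM.

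Set side by side over the same 3 WT libraries, which all 3 comparisons share, the log2 fold changes of Mael were -2.06 in HxD, -2.96 in KO and -2.03 in V. Those of Dazl were -1.09 in HxD, -1.15 in KO and -1.22 in V, and those of Ccng1 1.22, 1.44 and 1.06 in the same order. Stra8 had -1.98 in HxD, -2.90 in KO and -2.16 in V, and only the KO and V values passed the threshold (adjusted p = 0.0928, 0.000907 and 0.0338 in HxD, KO and V, edgeR). In the direct edgeR tests between mutants Stra8 was not called, with log2 differences of 0.92 ± 0.42 for HxD over KO and 0.18 ± 0.42 for HxD over V. Tet1 was at 227.0, 221.7 and 285.8 CPM in HxD and 130.7, 158.3 and 80.8 CPM in KO, a log2 difference of 0.99 ± 0.24 that was not called, so transcript of the gene was still counted in the libraries labelled KO.

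**Figure D5:**
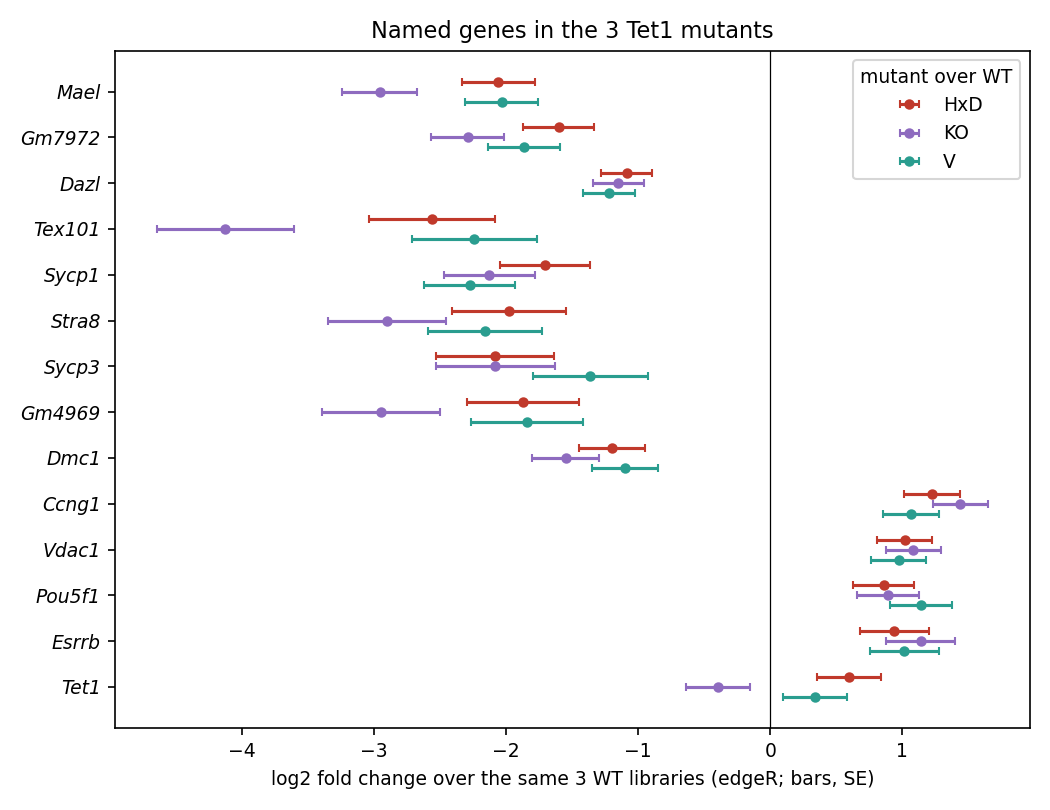
Log2 fold change over the same 3 WT libraries (x axis, bars are SE) of 14 named genes in HxD, KO and V. The 3 mutants lie on the same side of 0 for each gene except Tet1, and they share their WT values, so this is not independent support.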

How the data were processed

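Expression was measured by RNA sequencing in 12 libraries, 3 per genotype. The authors deposited raw gene counts, whole numbers in 1 table of 35976 rows. The tools include STAR 2.7.10b and featureCounts 2.0.3, per the submitters' processing notes, which also list SAMtools 1.9, Trim Galore 0.6.7 and FastQC and name the builds GRCm39 and mm10 without their role. Not given in the sources used here are the annotation, the strand setting and how multi-mapped reads were treated, so near-identical, overlapping and antisense genes are uncertain. Groups and replicate numbers came from the sample titles.

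Counts were tested with edgeR 4.0.16 in R 4.3.3 (quasi-likelihood F test, two-sided, TMM, filterByExpr). All 12 libraries entered a single model with a term for group alone, so the groups share 1 estimate of the spread. Benjamini-Hochberg adjustment ran over all 16166 genes kept, with calls at an adjusted p under 0.05. DESeq2 1.42.0, limma-voom (limma 3.58.1), other filters and normalization, a fit of only 6 libraries, the replicate number as a block and fits without single libraries were alternatives. The scripts were tested on simulated data. Standard errors are the estimate over the square root of F. Replicates differed by more than counting noise (chi-square per degree of freedom of 37.9 to 124), and without molecular identifiers reads are not independent molecules.

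The comparison, the 24 gene lists and the genes followed were chosen with earlier results of these data known, so lists are described by counts and medians and have no test. Of 514 list entries, those below the filter, listed at 0 or not matched by symbol were not tested. Chosen by rule were Tet1 to Tet3, every called gene, the 8 higher and 8 lower uncalled genes of known function with the smallest unadjusted p, a mean of at least 5 CPM and groups that do not overlap, and up to 3 genes per list with the smallest p. Some of the genes chosen from the lists are not described in the text. Other list members (Meioc, Ythdc2, Hormad1, Trip13, Sgol2a, Spo11, Taf7l, Brdt, Piwil2, Ddx4, Prdm14, Trp53, Ddb2, Dnmt1) were added after their values were seen. Promoters and positions came from RefSeq for GRCm38.p6.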

Additional observations from a re-analysis of the deposited data

How the results depend on the processing

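Against WT, 5 genes were called in the reported fit. The count was 64 with DESeq2 (36 higher, 28 lower), 15 with limma-voom, 71 with no filter, 1 with a mean of at least 5 CPM (Mael), 20 with only the HxD and WT libraries (1 higher, 19 lower) and 7 with DESeq2 size factors. It was 0 without WT1 and WT3, an alternative chosen after seeing the data. Leaving out 1 library gave 1 to 35 calls, with 1 without HxD3, WT1 or WT2, 2 without HxD2, 8 without KO3, 10 without V1 and 35 without WT3. Of the 35 without WT3, 19 were higher, with Esrrb, Nanog, Tfap2c, Dnd1 and Trp53 among them. The other 16 were lower, with Sycp1, Sycp3 and Stra8 among them. Of the 64 DESeq2 calls, 35 had a mean under 5 CPM in both groups. All 5 genes of the reported fit were also called by DESeq2, by limma-voom and in the fit of 6 libraries. The fit of 6 libraries added Sycp1, Sycp2, Sycp3, Stra8, Gm4969 and Meioc among others.

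With the replicate number as a block 22 genes were called, Sycp1, Stra8, Dmc1 and Pou5f1 among them. Same-numbered HxD and WT libraries had correlations of their deviations from the group means of 0.0270, -0.00195 and 0.0425 and did not each correlate best with their own number, so the numbers were not treated as pairs.

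Against KO, where the reported count was 0, it was 25 with DESeq2, 1 with DESeq2 size factors, 10 with no filter, 2 with the block, 2 without WT1 and WT3, and 0 to 3 with 1 library left out. Against V, where it was also 0, it was 15 with DESeq2, 1 with no filter and 0 to 1 with 1 library left out. Among single genes 4 values changed sign, with log2 fold changes of -0.36 for Tet2 without HxD3, 2.25 for Rad21l without WT1 and WT3, and 0.23 for Jun without WT1 and WT3 and 0.14 without WT1. With 1 library left out Tet2 ranged from -0.36 to 0.87 and Jun from -1.72 to 0.14. The cause was not tested. Of low genes 43.7% were listed at 0 in HxD1, and the size of change detectable in such genes was not measured.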
